A study of Saccharomyces cerevisiae with 6 samples.

Results

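The genes described here encode 8 hexose carriers of the plasma membrane (HXT1 to HXT8) and the 2 glucose sensors Snf3 and Rgt2 of the budding yeast Saccharomyces cerevisiae. They were chosen by gene symbol. All 10 were on the arrays, each with 7 spots, among 4073 named genes. The study exposed cells to 39 °C for 20 minutes and compared them with controls kept at 25 °C, in wild type (the laboratory strain BY4741) and in an rpd3 deletion mutant of the same background. RPD3 encodes a histone deacetylase, an enzyme that removes acetyl groups from histones. There were 3 arrays of 2 channels for each strain, from independent 200 ml cultures grown to mid-log phase in YPD, a rich medium with glucose. Control RNA was labelled with Cy5 and heated RNA with Cy3 on every array, so a dye effect cannot be told apart from heat within a strain.

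Budding yeast takes up glucose by facilitated diffusion through a family of related carriers that differ in affinity. Low-affinity carriers such as Hxt1 and Hxt3 serve cells that grow in plentiful glucose, while the genes of high-affinity carriers such as Hxt2, Hxt6 and Hxt7 are repressed when glucose is high and expressed when it is scarce. Snf3 and Rgt2 resemble carriers but act as sensors of low and of high glucose: through the casein kinases Yck1 and Yck2 and the ubiquitin ligase subunit Grr1 they lead to the loss of Mth1 and Std1, which frees HXT genes from the repressor Rgt1. The kinase Snf1 and the repressor Mig1 form the second glucose-responsive branch.

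Every value is a log2 ratio of the 2 channels, likely of heated over control cells, averaged over a gene's spots on an array. The sign and the log base were not stated in the sources used here: the sign was read from the design text and from heat shock genes such as HSP104, which were positive on all 6 arrays, and base 2 from the range of the values. If the base were another, all values would change by a common factor and the tests would not. Ratios say nothing about the level of a transcript in either condition, so carriers were compared by their ratios and never by abundance. The error given with a strain mean is the SD of its 3 arrays. "Rose", "fell", "higher" and "lower" as calls refer to a Benjamini-Hochberg adjusted p under 0.05 over all 4073 genes in limma, fitted to all 6 arrays. Intervals are 95% confidence intervals of that fit.

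RPD3 itself ranged from 0.19 to 0.26 on the wild-type arrays and from -0.11 to -0.03 on the mutant arrays, a weak check of the labels because neither channel of a mutant array should hold its RNA. The marker genes HIS3, LEU2, MET17 and URA3, which BY4741 lacks or carries in cut form, had a mean ratio of 0.25, 0.13 and 0.08 on wild-type arrays 1 to 3, and of -0.07, -0.09 and -0.12 on mutant arrays 1 to 3. Spots with little or no transcript thus lay about 0.25 lower in the mutant, and small ratios or small strain differences of the carriers should be read beside these values. Mutant array 2 had the highest ratio of the 3 mutant arrays for HXT5, HXT6, HXT7 and HSP12, and mutant array 3 the lowest.

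In wild type, the heat ratios of the carriers spanned from a 3.78-fold fall of HXT3 to a 47.9-fold rise of HXT5. HXT5, HXT6 and HXT7 rose strongly, RGT2, HXT2, HXT8 and SNF3 rose by smaller amounts, HXT1 and HXT3 fell, and HXT4 did not pass the test. In all, 9 of the 10 genes were called, where 66% of all genes were called: 7 rose, as did 29.7% of all genes, and 2 fell, as did 36.3%. A change of at least 2-fold was called for 6 of the 10, against 20.5% of all genes. The median of the 10 was 0.56, against -0.05 over all genes. With arrays centred on the 4 marker genes, 5 of the 10 rose and 3 fell, where 21.6% of all genes rose and 45.2% fell.

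**Figure D1:**
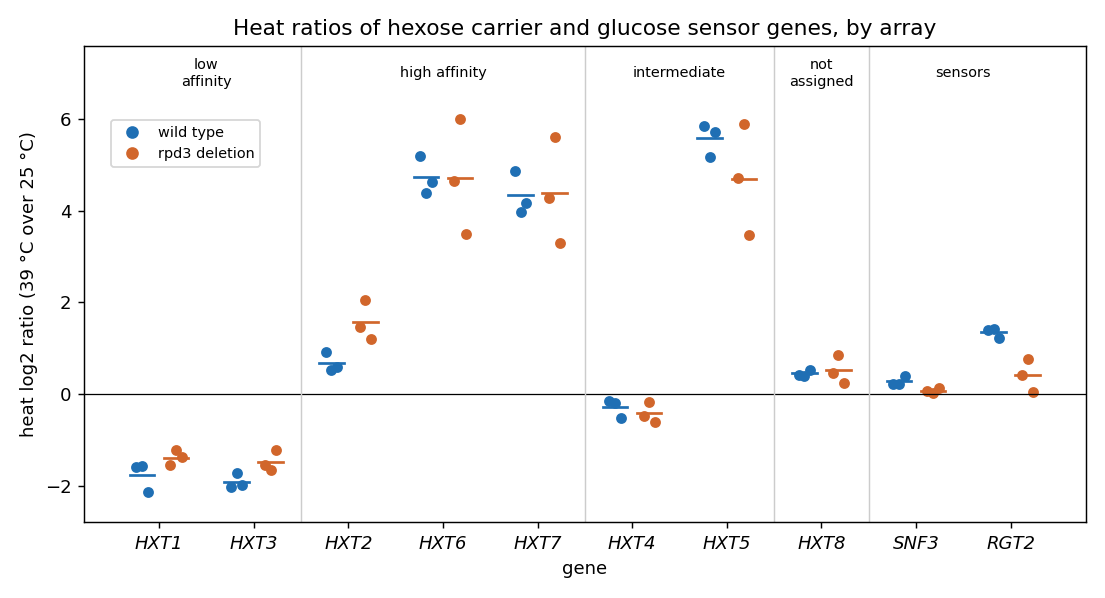
Heat log2 ratio (vertical axis, likely 39 °C over 25 °C) of each gene on each array, with wild type in blue and the rpd3 deletion in orange; points are arrays (n = 3 per strain) and bars are strain means. HXT5, HXT6 and HXT7 lie between 3.29 and 6.01 in both strains, and HXT1 and HXT3 between -2.14 and -1.22.

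Both low-affinity carrier genes fell in wild type. HXT1, which encodes the carrier typical of high glucose, was at -1.60, -1.57 and -2.14 on wild-type arrays 1 to 3 (mean -1.77 ± 0.32, SD, n = 3, adjusted p = 1.74e-05), a 3.41-fold fall. HXT3, which encodes a low-affinity carrier used over a wide range of glucose, was at -2.03, -1.73 and -1.99 (-1.92 ± 0.16, adjusted p = 1.34e-05). The arrays of the 2 genes overlap, and HXT1 minus HXT3 within an array was 0.43, 0.16 and -0.15. They held ranks 3880 and 3918 of 4073 genes by mean ratio.

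The 3 high-affinity carrier genes rose, by very different amounts. HXT6 was at 5.20, 4.39 and 4.63 in wild type (4.74 ± 0.41, adjusted p = 3.79e-05), a 26.7-fold rise. HXT7 was at 4.87, 3.98 and 4.17 (4.34 ± 0.47, adjusted p = 4.52e-05), a 20.2-fold rise. HXT6 and HXT7 are neighbouring genes with nearly identical coding sequences, so whether their spots measure them separately is uncertain. HXT6 exceeded HXT7 on every array, by 0.32, 0.42 and 0.46 in wild type and by 0.38, 0.40 and 0.20 in the mutant. HXT2, the high-affinity carrier gene that is not part of this pair, was at 0.93, 0.52 and 0.59 in wild type (0.68 ± 0.22, adjusted p = 0.00636), a 1.60-fold rise. It lay far below HXT6 on every array, with HXT2 minus HXT6 at -4.27, -3.87 and -4.04. Leaving out wild-type array 1 ended the HXT2 call (0.56, adjusted p = 0.0565).

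The mean ratio of the high-affinity genes exceeded that of the low-affinity genes by 5.48, 4.61 and 5.20 on wild-type arrays 1 to 3 (5.10 ± 0.44) and by 5.02, 6.0 and 3.95 on mutant arrays 1 to 3 (4.99 ± 1.02). These ranges overlap between the strains. As a score over chosen genes the difference was given no test. It rested largely on HXT6 and HXT7: HXT2 alone exceeded HXT1 by 2.45 ± 0.33 and HXT3 by 2.60 ± 0.35 in wild type. With HXT6 and HXT7 counted as 1 carrier the wild-type difference was 4.45, and with HXT4 added to the high-affinity genes it was 4.21. Every array of both strains kept the order HXT6, HXT7, HXT2 and then the low-affinity pair.

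**Figure D2:**
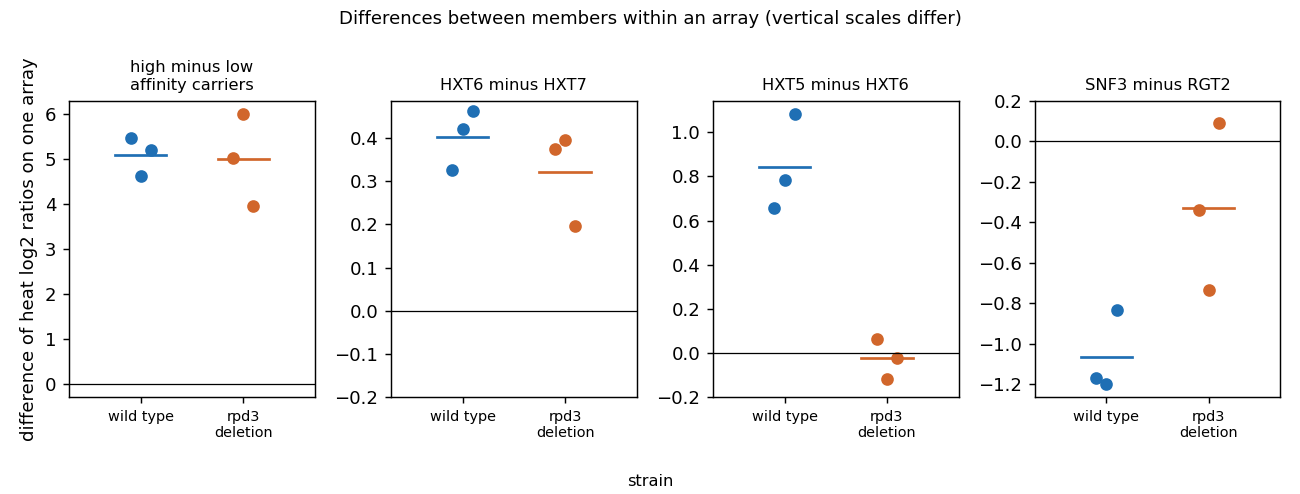
Differences of heat log2 ratios between genes on the same array (vertical axis, scales differ between panels), with wild type in blue and the rpd3 deletion in orange; points are arrays (n = 3 per strain) and bars are strain means. High-affinity minus low-affinity genes lie between 3.95 and 6.0 in both strains, HXT5 minus HXT6 lies between 0.66 and 1.08 in wild type and between -0.12 and 0.06 in the mutant, and SNF3 minus RGT2 is lower in wild type.

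Of the carriers of intermediate affinity, HXT5 had the highest ratio of all carriers in wild type and HXT4 one near 0. HXT5, whose carrier is known from slow growth, starvation and stress, was at 5.85, 5.18 and 5.71 (5.58 ± 0.36, adjusted p = 1.59e-05). It ranked 3, 4 and 3 among 4073 genes on wild-type arrays 1 to 3, and HXT6 ranked 8, 10 and 13. HXT4 was at -0.14, -0.20 and -0.52 (-0.29 ± 0.20, adjusted p = 0.0515, interval -0.55 to -0.03). It was called lower in wild type in 4 of 14 alternatives: with arrays centred on the marker genes (-0.44, adjusted p = 0.00583), with wild type fitted alone (adjusted p = 0.0294), and without mutant array 2 (0.0221) or 3 (0.0364), where only the estimate of the spread changed. Without wild-type array 3 its mean was -0.17 (adjusted p = 0.26).

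HXT8, a little-studied member of the family, was at 0.41, 0.40 and 0.53 in wild type (0.45 ± 0.075, adjusted p = 0.0105). Its spots disagreed more than those of most genes: their spread was 0.606 on wild-type array 3, and its mean spread over the arrays lay at percentile 97.3 of all genes. Its call was lost when wild-type array 3 was left out (0.405, adjusted p = 0.0559), and also when the marker genes set the centre of each array (0.30, adjusted p = 0.0592).

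The sensor genes differed from each other. RGT2, the sensor of high glucose, was at 1.40, 1.42 and 1.22 in wild type (1.35 ± 0.11, adjusted p = 7.18e-05), a 2.54-fold rise. SNF3, the sensor of low glucose, was at 0.23, 0.22 and 0.39 (0.28 ± 0.098, adjusted p = 0.0103), which is close to the marker genes' mean of 0.15. Leaving out wild-type array 3 (0.22, adjusted p = 0.061) or centring on the marker genes (0.13, adjusted p = 0.246) ended the SNF3 call. On wild-type arrays SNF3 minus RGT2 was -1.17, -1.20 and -0.83, and on mutant arrays it was -0.34, -0.73 and 0.09, without overlap between the strains. Arrays of the strains did not overlap for 58.4% of all single genes either, and the contrast was not tested. Of the 2 genes, RGT2 differed more between the strains (-0.94) than SNF3 (-0.20).

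Most of the carrier genes lie in 2 neighbourhoods of the genome, each with both a rise and a fall among its carrier genes in wild type. On chromosome IV the order is HXT7 (locus YDR342C), HXT6 (YDR343C), 1 open reading frame not analysed here, and HXT3 (YDR345C). In wild type the means ran from 4.34 and 4.74 to -1.92 over these 3 genes. On chromosome VIII the order is HXT4 (YHR092C), AHT1, HXT1 (YHR094C) and HXT5 (YHR096C), the last 2 with no gene between them in the RefSeq gene table. There the means were -0.29, -0.03, -1.77 and 5.58. AHT1 was not called (adjusted p = 0.818), and the nearest measured genes outside the rows were SVF1 beyond HXT3 (-1.14, adjusted p = 0.000911), MSR1 before HXT4 (0.16, adjusted p = 0.0778) and SFB3 beyond HXT5 (-0.46, adjusted p = 0.00357). SNF3 (YDL194W) and RGT2 (YDL138W) also lie on chromosome IV, 50 genes apart, HXT8 (YJL214W) lies on chromosome X and HXT2 (YMR011W) on chromosome XIII. Gene order and names came from RefSeq assembly R64, and coordinates are not printed because the build behind the array annotation was not stated in the sources used here.

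**Figure D3:**
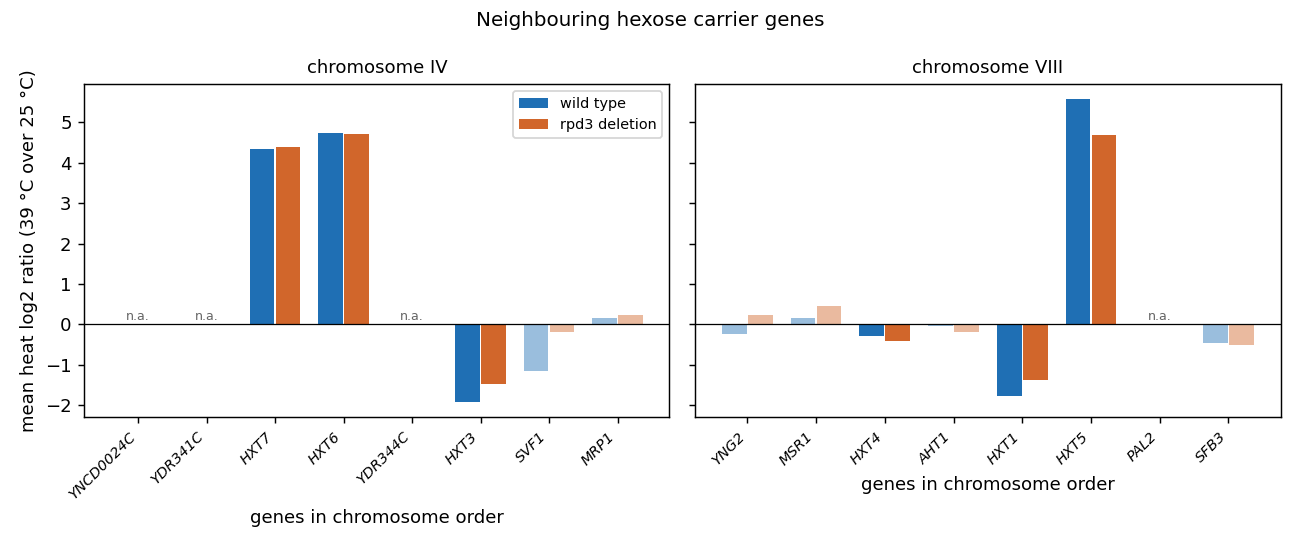
Mean heat log2 ratio (vertical axis, n = 3 arrays per strain) of genes in chromosome order in the HXT7-HXT6-HXT3 and HXT4-HXT1-HXT5 neighbourhoods, with wild type in blue, the rpd3 deletion in orange, and genes other than the hexose carriers in pale colours; "n.a." marks genes not analysed here. HXT3 (-1.92) stands near HXT6 (4.74) and HXT1 (-1.77) beside HXT5 (5.58) in wild type.

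In the rpd3 deletion the same carriers stood at the extremes. HXT6, HXT5, HXT7, HXT2, HXT8 and RGT2 rose, HXT3, HXT1 and HXT4 fell, and SNF3 did not pass the test. Thus 9 of 10 genes were called, where 65.6% of all genes were called: 6 rose, as did 33.7% of all genes, and 3 fell, as did 31.9%. In all, 6 of 10 changed by at least 2-fold, against 16% of all genes. The median of the 10 was 0.46, against 0.003 over all genes.

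HXT6 was at 4.66, 6.01 and 3.48 on mutant arrays 1 to 3 (4.72 ± 1.27, adjusted p = 5.7e-05), a 26.3-fold rise. HXT5 was at 4.72, 5.90 and 3.46 (4.69 ± 1.22, adjusted p = 4.76e-05), a 25.9-fold rise. HXT7 was at 4.28, 5.62 and 3.29 (4.40 ± 1.17, adjusted p = 6.17e-05). For all 3 genes array 2 was highest and array 3 lowest, and the SD was 2.5 to 3.4 times that in wild type. The adjusted p-values above use a spread shared by both strains. With the mutant fitted alone in limma, adjusted p was 0.0025 for HXT6, 0.00233 for HXT5 and 0.00246 for HXT7.

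HXT2 was at 1.47, 2.04 and 1.20 in the mutant (1.57 ± 0.43, adjusted p = 0.000115), a 2.97-fold rise. Its rank among all genes was 146, 124 and 176 on the mutant arrays, against 409, 733 and 664 on the wild-type arrays. HXT1 was at -1.55, -1.23 and -1.38 (-1.39 ± 0.16, adjusted p = 7.31e-05), and HXT3 at -1.56, -1.66 and -1.22 (-1.48 ± 0.23, adjusted p = 2.98e-05). HXT1 and HXT3 fell again, by 2.61-fold and 2.78-fold.

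HXT4 was at -0.48, -0.17 and -0.60 in the mutant (-0.42 ± 0.22, adjusted p = 0.0123), and its call was lost without mutant array 1 (adjusted p = 0.0768) or 3 (0.0534). HXT8 was at 0.46, 0.86 and 0.24 (0.52 ± 0.31, adjusted p = 0.00563, or 0.034 with the mutant fitted alone), with a spread of 0.504 between its spots on array 2. RGT2 was at 0.42, 0.76 and 0.04 (0.41 ± 0.36, adjusted p = 0.0271). The RGT2 call ended when wild-type array 1 (adjusted p = 0.0518), mutant array 1 (0.105) or mutant array 2 (0.23, adjusted p = 0.116) was left out, and with the mutant fitted alone (adjusted p = 0.0862). SNF3 was at 0.08, 0.03 and 0.12 (0.076 ± 0.048, adjusted p = 0.379, interval -0.09 to 0.24).

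The comparison between the strains asks how the heat ratios depend on RPD3. Each ratio is taken within a strain, so a strain difference may lie in the control cells, in the heated cells or in both. HXT2 had a higher ratio in the mutant, RGT2 a lower one, and HXT3 a smaller fall. These were 3 of 10 genes, where 45.8% of all genes were called: 2 were higher, as were 24.8% of all genes, and 1 was lower, as were 21%. The ranges of the 2 strains were separate for 5 of the 10 genes, against 58.4% of all genes. For HXT1, HXT2 and HXT3 the mutant arrays lay above (31.1% of all genes), and for SNF3 and RGT2 below (27.3%). Among 10 genes such shares rest on few genes: the number called ranged from 1 to 4 when 1 array was left out. Whether the shares differ from those of all genes was not tested.

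HXT2 differed by 0.89 ± 0.22 (SE, interval 0.37 to 1.42, adjusted p = 0.0159), a 1.86-fold higher ratio, and all 3 mutant arrays lay above all wild-type arrays. Leaving out wild-type array 2 ended the call (0.81, adjusted p = 0.0654), which held under the other 13 alternative settings. RGT2 differed by -0.94 ± 0.18 (interval -1.37 to -0.51, adjusted p = 0.00633), a 1.92-fold lower ratio, with all mutant arrays below all wild-type arrays. That call held under all 13 alternatives in which RGT2 was tested, with adjusted p from 0.000741 to 0.0338. The spread between RGT2 spots was 0.172, 0.110 and 0.137 on the mutant arrays and 0.0623, 0.0252 and 0.0227 on the wild-type arrays, and its part in the difference was not tested.

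HXT3 differed by 0.44 ± 0.15 (interval 0.09 to 0.79, adjusted p = 0.0465), without overlap of the arrays. Its call held in 4 of 13 alternatives only. It ended on leaving out array 1 (0.38, adjusted p = 0.15), 2 (0.53, 0.0541) or 3 (0.40, 0.11) of wild type or mutant array 1 (0.48, 0.0996) or 3 (0.31, 0.107), with the replicate number as a block (0.44, adjusted p = 0.0507), with arrays centred on the median gene (0.39, 0.0682) or scaled to one spread (0.37, 0.0898), and after quantile normalization (0.17, 0.319). HXT1 differed by a like amount, 0.38 ± 0.18 (interval -0.03 to 0.80, adjusted p = 0.114), which was not called. The HXT1 difference was called in 1 of 14 alternatives, with arrays centred on the marker genes (0.63, adjusted p = 0.0156), and shrank to 0.047 (adjusted p = 0.793) after quantile normalization and to 0.20 (0.27) without wild-type array 3.

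The 3 genes with the highest ratios had wide intervals for the strain difference. HXT6 differed by -0.02 ± 0.57 (interval -1.36 to 1.32, adjusted p = 0.975) and HXT7 by 0.06 ± 0.54 (interval -1.21 to 1.33, adjusted p = 0.936), so a change of about 2-fold in either direction lay within the intervals. HXT5 differed by -0.89 ± 0.55 (interval -2.17 to 0.39, adjusted p = 0.212). It was called lower in 2 of 14 alternatives, without mutant array 2 (-1.49, adjusted p = 0.00789) and after quantile normalization (-0.78, adjusted p = 0.00359). Without mutant array 3 it was -0.27 (adjusted p = 0.539). Within an array HXT5 exceeded HXT6 by 0.66, 0.78 and 1.08 in wild type, while HXT5 minus HXT6 was 0.06, -0.12 and -0.02 in the mutant. These ranges do not overlap, but the pair was chosen after its values were seen and the difference was not tested.

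SNF3 differed by -0.20 ± 0.10 (interval -0.44 to 0.03, adjusted p = 0.136), HXT4 by -0.13 ± 0.16 (interval -0.50 to 0.24, adjusted p = 0.519) and HXT8 by 0.07 ± 0.16 (interval -0.31 to 0.45, adjusted p = 0.744). The SNF3 difference is of the size of that of the marker genes, -0.25, and with arrays centred on those genes it was 0.04.

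**Figure D4:**
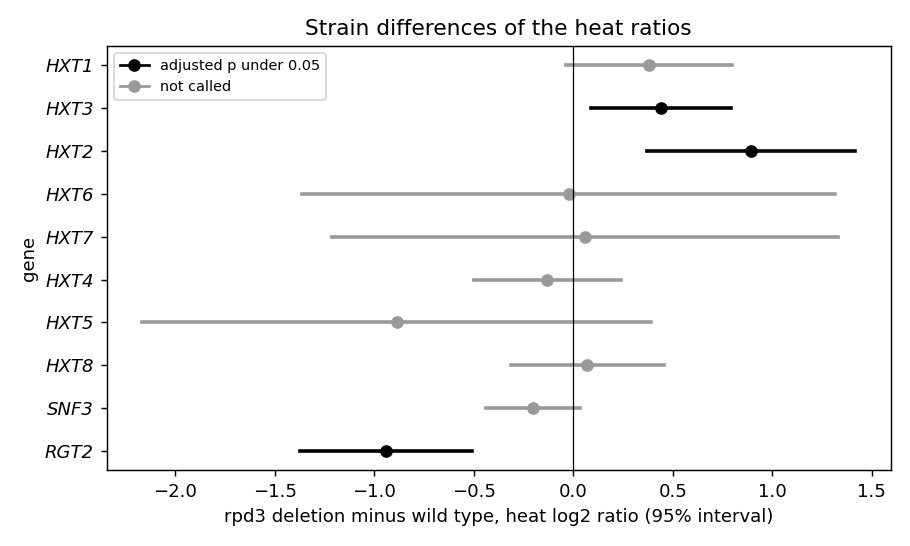
Strain difference of the heat log2 ratio (horizontal axis, rpd3 deletion minus wild type) for each gene, as the estimate and 95% interval of the limma fit over 6 arrays; black marks an adjusted p under 0.05 and grey genes not called. HXT2 and HXT3 lie above 0 and RGT2 below, and the intervals of HXT5, HXT6 and HXT7 are the widest.

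Genes that act downstream of the sensors moved in both directions. Of 8 measured genes of the Rgt1 branch, 3 rose and 4 fell in wild type, where 29.7% and 36.3% of all genes did, with a median of -0.05. RGT1, the repressor of HXT genes, rose in wild type (0.84 ± 0.13, SD, adjusted p = 0.000319), as did the kinase gene SKS1 (0.78 ± 0.17) and GRR1 (0.44 ± 0.081). The casein kinase genes YCK2 (-0.53 ± 0.13) and YCK1 (-0.46 ± 0.14) fell, together with STD1 (-0.32 ± 0.12) and the repressor gene MIG2 (-0.29 ± 0.17). In the mutant 5 rose and 1 fell, where 33.7% and 31.9% of all genes did. The strain difference was called for 2 of the 8, against 45.8% of all genes. YCK1 was higher in the mutant, where it rose (0.58 ± 0.38; difference 1.04 ± 0.19, SE, adjusted p = 0.00521), and RGT1 was lower (0.34 ± 0.26; difference -0.50 ± 0.15, adjusted p = 0.0319). MTH1, the partner of STD1, was at 0.20 ± 0.086 in wild type (adjusted p = 0.0857) and rose in the mutant (0.42 ± 0.19).

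In the Snf1-Mig1 branch 4 of 14 measured genes rose and 1 fell in wild type, against 29.7% and 36.3% of all genes, with a median of 0.03. In the mutant 5 rose and 4 fell, against 33.7% and 31.9% of all genes. The repressor genes NRG1 (1.17 ± 0.051, SD) and MIG1 (0.69 ± 0.11) rose in wild type, and rose in the mutant as well (0.93 ± 0.48 and 0.92 ± 0.36). The strain difference was called for 7 of the 14, close to the 45.8% of all genes. It was lower for 5 of the 14, where 21% of all genes were lower. These were REG2 (-0.40 ± 0.12, SE), SNF1 itself (-0.39 ± 0.10) and all 3 beta subunits of the Snf1 kinase, SIP2 (-0.95 ± 0.19), SIP1 (-0.42 ± 0.12) and GAL83 (-0.38 ± 0.097). All but SIP2 differed by 0.38 to 0.42, beside 0.25 for the marker genes. The strain difference was called higher for 2, where 24.8% of all genes were higher: GLC7, the phosphatase that opposes Snf1 (1.31 ± 0.25), and the corepressor gene CYC8 (0.37 ± 0.10).

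The genes of hexose phosphorylation, the step after uptake, responded alike in both strains by direction. HXK1, a hexokinase, rose in both strains, by 2.99 ± 0.48 (SD, adjusted p = 1.74e-05) in wild type and 3.39 ± 0.47 in mutant cells. The glucokinase gene GLK1 (1.36 ± 0.33 and 1.30 ± 0.39) and its relative EMI2 (1.51 ± 0.20 and 1.38 ± 0.40) rose in both, and HXK2, the hexokinase gene of growth on glucose, fell in both (-0.33 ± 0.11 and -0.26 ± 0.034). None of the 4 strain differences was called (limma, unadjusted p from 0.215 to 0.812), where 45.8% of all genes were. The isozymes HXK1 and HXK2 differed by 3.32 ± 0.56 in wild type and 3.65 ± 0.45 in mutant cells, in ranges that overlap.

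The other members of the carrier family and further sugar carriers had small ratios. Of 14 measured genes 9 rose and 5 did not pass the test in wild type, where 29.7% of all genes rose, with a median of 0.31, against 0.15 for the marker genes. In the mutant 3 rose, where 33.7% of all genes did, and the median was 0.05. VPS73, which encodes a protein related to sugar carriers, had the highest ratio of this list in both strains (1.86 ± 0.18 and 0.91 ± 0.11). The galactose carrier gene GAL2 averaged 0.57 ± 0.016 over the wild-type arrays and -0.04 ± 0.30 over the mutant arrays, and HXT17 averaged 0.47 ± 0.041 and -0.02 ± 0.26. The strain difference was called lower for VPS73, GAL2, HXT17, STL1 and MAL11, 5 of 14, where 21% of all genes were lower and 45.8% were called in either direction. Of these, all but VPS73 (-0.95 ± 0.13, SE) differed by 0.50 to 0.61, beside 0.25 for the marker genes. The other HXT genes of the list had wild-type means of 0.07 to 0.32, except HXT9 (0.73 ± 0.50, adjusted p = 0.0374).

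Among 6 measured genes of carrier turnover 4 rose in wild type, where 29.7% of all genes did, and 2 did not pass the test. They encode arrestin-type adaptors and the ubiquitin ligase Rsp5, which mark plasma membrane carriers for endocytosis. CSR2 (2.15 ± 0.041, SD), ECM21 (1.49 ± 0.10), ROD1 (0.64 ± 0.12) and BUL1 (0.38 ± 0.15), all adaptor genes of the arrestin type, rose in wild type. In the mutant 3 rose and 2 fell, where 33.7% and 31.9% of all genes did. CSR2 (1.55 ± 0.52), BUL1 (0.32 ± 0.073) and ECM21 (0.29 ± 0.26) rose there, and ROD1 (-0.29 ± 0.042) and RSP5 (-0.57 ± 0.25) fell. The strain difference was called lower for ECM21 (-1.19 ± 0.15, SE, adjusted p = 0.00131), ROD1 (-0.93 ± 0.10, adjusted p = 0.000925) and RSP5 (-0.54 ± 0.15, adjusted p = 0.022). These are 3 of 6, where 21% of all genes were lower and 45.8% were called either way.

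**Figure D5:**
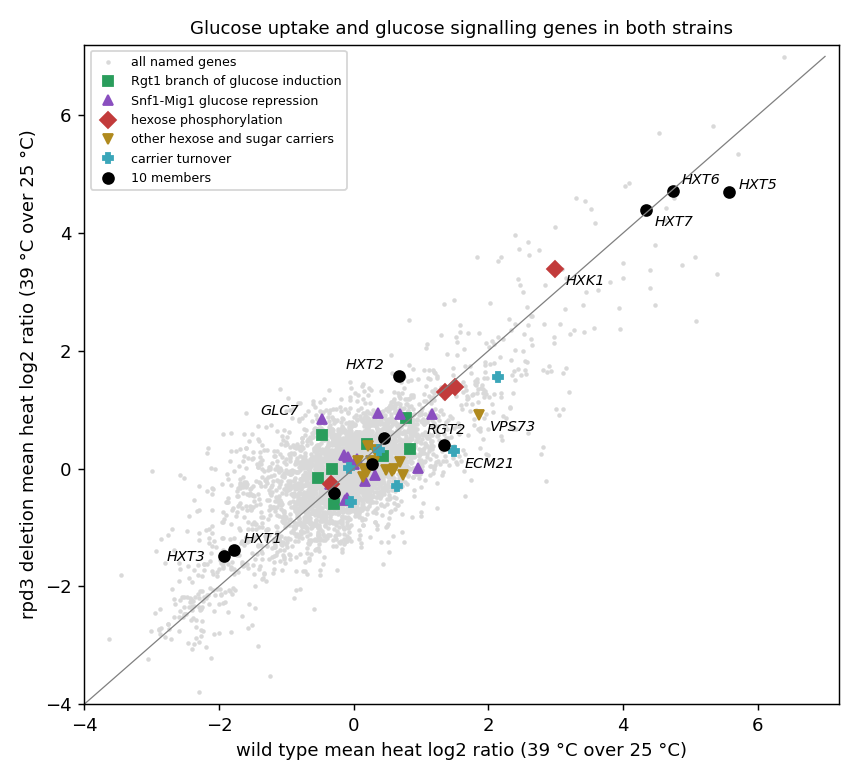
Mean heat log2 ratio in wild type (horizontal axis) and in the rpd3 deletion (vertical axis), n = 3 arrays each, for the 10 carrier and sensor genes (black), 5 lists of related genes (coloured symbols) and all named genes (grey); the line marks equal ratios. HXT5, HXT6, HXT7 and HXK1 stand at the upper right, RGT2, ECM21 and VPS73 below the line, and HXT2 and GLC7 above it.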

How the data were processed

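The deposited table holds a log ratio of the 2 channels for each of 45220 spots on 6 arrays, read as log2. The authors used limma, per the submitters' processing notes, with no version. How background and dye bias were corrected is not given in the sources used here. RNA (500 ng) was labelled with Cy3 or Cy5 by linear amplification, per the labels' protocols. The platform's annotation named 28532 spots with 1 gene each, giving 4073 genes. In all, 125 old symbols were updated through the RefSeq gene table, and 4065 genes matched it. Dim spots were not filtered, since intensities were not used here, and the number of arrays limits the precision.

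Spots were averaged per gene and array. All 6 arrays entered 1 fit in limma 3.58.1 (R 4.3.3) with a mean per strain, eBayes moderation (4 residual and 3.37 prior degrees of freedom) and no covariate. The fit was tried first on simulated arrays. These had independent noise with the same spread in both strains, so a wider spread in the mutant was not covered. Wild type against 0, mutant against 0 and mutant minus wild type were tested over 4073 genes. The carriers, their affinity classes and the lists of related genes were chosen from general knowledge of yeast, with earlier results of these data known. All 10 carrier and sensor genes are named, and of the related lists a part of the called genes; the others are counted. Likeness between genes is the Euclidean distance over the 6 log2 ratios.

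The labels give replicate numbers but no shared day or batch, so no pairing was used. Deviations of same-numbered arrays of the strains correlated at r from -0.22 to 0.418. With so few arrays this cannot tell whether a day or batch was shared. Alternatives changed the spot summary, centring, scaling, the filter on spot spread, the moderation and the arrays included.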

Additional observations from a re-analysis of the deposited data

Results flagged for a closer look

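The heat ratios of 3 of the 10 genes differed between the strains by the limma test of the difference itself over 6 arrays, where 45.8% of all genes differed. RGT2 had the lower ratio in the mutant (-0.94 ± 0.18, SE, adjusted p = 0.00633), with 3 of 3 mutant arrays below the wild-type arrays, as for 27.3% of all genes. HXT2 had the higher ratio (0.89 ± 0.22, adjusted p = 0.0159) and HXT3 the smaller fall (0.44 ± 0.15, adjusted p = 0.0465). Each had 3 of 3 mutant arrays above the wild-type arrays, as did 31.1% of all genes. The HXT2 call held in 13 of 14 alternatives and ended without wild-type array 2 (limma adjusted p = 0.0654). The HXT3 call held in 4 of 13 alternatives.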

How the results depend on the processing

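Of 30 results (10 genes in 3 contrasts), 15 kept their direction and their side of the threshold under every alternative in which they were tested. Of 411 values under alternatives, 371 kept both, 21 lost a call, 7 gained one and 12 changed sign, all 12 for strain differences that were not called. With arrays centred on the marker genes the strain difference was 0.12 for HXT4, 0.22 for HXT6 and 0.044 for SNF3, and HXT6 was at 0.16 with arrays scaled to one spread and 0.13 after quantile normalization. Leaving out 1 array at a time, it ranged from -0.67 to 0.59 for HXT6, -0.55 to 0.61 for HXT7 and -0.10 to 0.21 for HXT8. The number of carrier and sensor genes with a called strain difference ranged from 1 to 4 when 1 array was left out, from 2 higher and 2 lower without mutant array 2 to 0 higher and 1 lower without wild-type array 2. It was 1 of 7 with the 25% of genes with the noisiest spots left out, which removes HXT3, HXT8 and RGT2 from the fit, so the high-minus-low and sensor differences had no value there. After quantile normalization 1 gene was higher and 2 were lower, and with arrays centred on the median gene or scaled 1 was higher and 1 lower. Over all genes the strain difference was called for 1866 genes, and for 1093 to 2218 when 1 array was left out (1093 without mutant array 1, 1175 and 1202 without arrays 1 and 2 of wild type). The high-minus-low difference in wild type was 4.21 with HXT4 added and 4.45 with HXT6 and HXT7 as 1 carrier, by construction of the classes. With the replicate number as a block, 2 of 10 strain differences were called (HXT2 and RGT2), and 2093 over all genes. The labels name no day or batch shared by same-numbered arrays. The correlation of deviations between same-numbered arrays was -0.22, 0.21 and 0.418, and not every array correlated best with its own number. The causes of the other changes were not tested.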

Other observations

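The HXT5, HXT6 and HXT7 ratios can be set beside those of strongly induced stress and reserve carbohydrate genes on the same array. How far the mutant arrays still differed after this subtraction depended on the gene. On mutant arrays 1 to 3 HXT5 minus TPS1 was 2.61, 3.26 and 1.88, and HXT5 minus CTT1 was 1.92, 2.13 and 1.71. The SD over the mutant arrays was 1.22 for HXT5 itself. After subtraction it ranged from 0.207 (CTT1) to 0.805 (GSY1). HXT5 exceeded HSP104, the disaggregase gene, by 1.54 ± 0.10 (SD, n = 3) in wild type, while HXT5 minus HSP104 was -0.11 ± 0.37 in the mutant, and HXT5 minus HSP12 was -0.81 ± 0.092 and -2.29 ± 0.64, both without overlap of the arrays. Against CTT1, the catalase gene, the order of the strains was the opposite: HXT5 exceeded it by 1.11 ± 0.27 in wild type and 1.92 ± 0.21 in the mutant, again without overlap, and CTT1 itself had a lower ratio in the mutant (-1.70 ± 0.45, SE, limma adjusted p = 0.0194). Against TPS1, GSY1 and GPH1, genes of trehalose and glycogen metabolism, the arrays of the strains overlapped. HXT6 and HXT7 overlapped between the strains against all of these genes except CTT1, which they exceeded by 1.95 ± 0.27 and 1.62 ± 0.20 in the mutant, with HXT6 minus CTT1 at 0.27 ± 0.21 and HXT7 minus CTT1 at -0.13 ± 0.26 in wild type. The comparison genes were chosen with earlier results known, and these differences were not tested.

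By distance over the 6 array ratios, the genes nearest to HXT6 were HSP26 (0.586), SOL4 (0.683) and HXT7 (0.912), and those nearest to HXT5 were ALD3 (1.17), HXT6 (1.49) and HSP26 (1.5). The nearest to RGT2 were AGP3 (0.121), MCH4 (0.152) and VID24 (0.279), and the nearest to HXT2 were SSA2 (0.342), MBF1 (0.390) and ITC1 (0.463). HXT5 had no neighbour as close as those of the other 3 genes. Few genes can lie near HXT5 by this measure, since it ranked 3 of 4073 genes by mean ratio in wild type.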
